A study of Mus musculus with 9 samples.

Results

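Cohesin is a ring-shaped protein complex that encircles DNA, and CTCF is a zinc finger protein that binds DNA and stops cohesin as it extrudes chromatin loops. The genes described here are the 10 mouse genes *Smc1a*, *Smc3*, *Rad21*, *Stag1*, *Stag2*, *Nipbl*, *Wapal*, *Pds5a*, *Pds5b* and *Ctcf*, out of 37273 annotated genes, of which 22367 are protein-coding. They are defined by name, by a rule that uses no measured value. All 10 were found in the GENCODE M1 annotation (mouse build NCBIM37, the same as mm9) under these symbols. For each gene, every BAP1 binding site whose middle lay within 1 kb of any of its annotated transcription start sites (TSSs) was listed as gene-proximal, and peaks up to 50 kb away were then listed with their distance.

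The peaks come from ChIP-Seq in Ba/F3, a mouse line of B cell precursors that depends on IL-3. One immunoprecipitation used an anti-BAP1 antibody on wild type Ba/F3 cells, and the other used an anti-FLAG antibody on a Ba/F3 derivative, grown in puromycin, that carries a stable copy of mouse BAP1 with a triple FLAG tag. The deposited list holds 13164 peaks for these 2 samples together, each 200 bp wide, and it gives no height and no p-value. Because all widths are equal, whether an interval covers a TSS or another interval restates where the middles lie, not how far binding extends. The remaining samples of the series, which are 4 of input DNA and 3 of the histone mark H2AK119ub, including *Bap1* knockout clones, were not analysed here. Each immunoprecipitation was sequenced once and the list does not say in which sample a peak was found, so no value below has a replicate error, and no test between samples was possible. The depth of the samples is unknown.

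BAP1 is a deubiquitinase that removes the ubiquitin mark H2AK119ub from histone H2A. In the cohesin ring, SMC1A and SMC3 are the long coiled-coil subunits, RAD21 closes the ring and is cut by separase at anaphase, and either STAG1 or STAG2 docks onto RAD21. NIPBL loads cohesin and drives loop extrusion, WAPL (gene *Wapal*) releases it from DNA, and PDS5A and PDS5B bind the ring and take part in both its release and its protection. In dividing cells cohesin also holds sister chromatids together, and in B cell precursors cohesin and CTCF shape the immunoglobulin loci during recombination.

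The parts of the peaks that lie nearest to the TSSs of 6 of the genes are shown first, because these stretches are where BAP1 was detected. Each is the longest part of the peak outside annotated exons, read from the NCBIM37 genome on the strand of the gene, 5′ to 3′, and capitals mark the motif matches described further on (CCGCCC is GGGCGG read on the other strand, ATTGG likewise is CCAAT, and CTTCCGG is the reverse complement of the ETS site).
*Smc1a*, chrX:148451358-148451557, plus strand: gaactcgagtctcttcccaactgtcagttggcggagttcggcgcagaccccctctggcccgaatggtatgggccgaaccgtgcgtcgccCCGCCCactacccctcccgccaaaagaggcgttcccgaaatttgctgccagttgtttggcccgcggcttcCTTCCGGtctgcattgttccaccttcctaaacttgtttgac
*Smc3*, chr19:53674485-53674684, plus strand: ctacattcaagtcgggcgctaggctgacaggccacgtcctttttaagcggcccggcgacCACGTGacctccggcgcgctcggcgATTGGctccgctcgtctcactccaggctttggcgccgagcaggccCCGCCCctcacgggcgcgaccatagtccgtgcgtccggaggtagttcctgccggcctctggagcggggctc
*Rad21*, chr15:51823307-51823438, minus strand: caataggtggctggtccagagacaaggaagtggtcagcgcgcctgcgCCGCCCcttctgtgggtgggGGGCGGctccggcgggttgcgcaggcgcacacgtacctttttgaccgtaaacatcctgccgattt
*Stag1*, chr9:100543767-100543866, plus strand: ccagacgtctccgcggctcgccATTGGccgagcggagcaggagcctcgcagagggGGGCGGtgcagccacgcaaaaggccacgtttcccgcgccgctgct
*Nipbl*, chr15:8394585-8394784, minus strand: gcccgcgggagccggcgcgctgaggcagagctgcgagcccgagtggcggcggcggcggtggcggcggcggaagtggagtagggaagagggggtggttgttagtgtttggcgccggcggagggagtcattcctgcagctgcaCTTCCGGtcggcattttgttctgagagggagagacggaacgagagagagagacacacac
*Ctcf*, chr8:108160155-108160354, plus strand: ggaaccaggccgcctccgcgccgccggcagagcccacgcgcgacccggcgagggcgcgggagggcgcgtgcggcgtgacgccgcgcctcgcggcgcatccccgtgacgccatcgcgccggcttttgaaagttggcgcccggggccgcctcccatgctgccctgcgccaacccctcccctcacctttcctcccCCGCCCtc

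All 10 cohesin and CTCF genes had at least 1 gene-proximal BAP1 peak. Among all annotated genes 26.2% had one, and among protein-coding genes 39.6%. Since the genes were chosen with earlier results of these data known, and genes are not replicates, the count is read beside these shares and was not tested. The cohesin and CTCF genes carried 16 gene-proximal peaks in all. A single peak was listed at 6 genes, and more than 1 at *Stag1*, *Stag2*, *Wapal* and *Pds5a*. Of the protein-coding genes with a gene-proximal peak, 25.5% had more than 1. When peaks within 500 bp were merged, only *Stag2*, 1 gene in place of 4, had more than 1, and the share of other genes after merging was not computed.

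**Figure D1:**
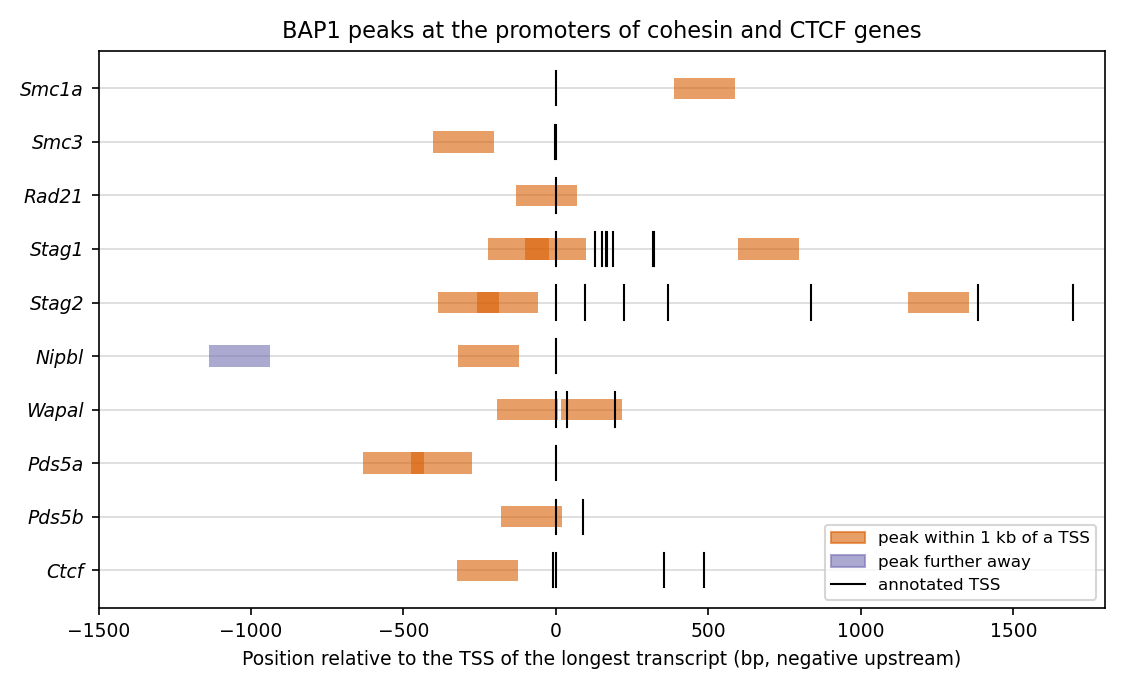
BAP1 peaks around the promoters, with 1 gene per row and the distance from the start of its longest transcript on the x axis in bp (negative upstream). Boxes are the 200 bp peaks drawn to scale, darker where they overlap, and vertical lines are annotated TSSs. The single peak of *Smc1a* lies downstream of its TSS, whereas *Smc3*, *Nipbl*, *Pds5a* and *Ctcf* have their peaks wholly upstream.

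The core ring genes each had 1 gene-proximal peak. *Smc1a* occupies chromosome X from 148450971 to 148497237 (plus strand), and its peak (148451358 to 148451557) had its middle 486 bp downstream of the TSS, in an intron. This was the only one of the nearest peaks with its middle downstream of the TSS. It was also the only one shared with another gene, since the TSS of *Ribc1*, which is transcribed in the opposite direction, lay within 1 kb of it as well. *Smc3* occupies chromosome 19 from 53674886 to 53720323 (plus strand). Its peak had its middle 302 bp upstream (distance -302 bp) and did not reach the TSS. *Rad21*, on the minus strand of chromosome 15 from 51794151 to 51823306, had its peak centred at -32 bp, so that the interval covered the TSS and 68 exonic bases. The subunits of the ring thus had their peaks on different sides of the start site.

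The paralogs *Stag1* and *Stag2* had the most gene-proximal peaks of the group, 3 each. *Stag1* spans 361 kb of chromosome 9 (100498217 to 100858964) and has 14 annotated TSSs. Its peaks had their middles at -124, -1 and 374 bp from the nearest TSS, all around the cluster of start sites near 100543867. The first pair of these intervals shared 77 bases. The most upstream TSS of *Stag1*, used by 1 annotated transcript, lay 45.5 kb from the nearest peak. *Stag2* lies on chromosome X from 39502494 to 39630362, with 8 annotated TSSs of which 7 had a peak within 1 kb. A pair of its peaks, at -288 and -158 bp, shared 70 bases upstream of the 5′-most TSS, and the third lay 1212 bases further along, at -130 bp from the TSS of another transcript. Both paralogs therefore had a pair of overlapping intervals and a separate peak further downstream, and only in *Stag2* did the pair lie at the 5′-most TSS. On chromosome X, which holds both *Smc1a* and *Stag2*, 23.6% of protein-coding genes had a gene-proximal peak.

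The loader gene *Nipbl*, on the minus strand of chromosome 15 from 8241225 to 8394463, had 1 gene-proximal peak at -221 bp from its single annotated TSS. A further peak had its middle at -1037 bp, just outside the 1 kb limit, and was near no other TSS. Of the peaks inside the limit, the most distant were those of *Pds5a* at -533 bp and *Smc1a* at 486 bp, so no gene owed its count to a peak close to the limit. *Wapal*, the release factor gene, occupies chromosome 14 from 35487114 to 35561169 (plus strand). Its adjacent peaks were separated by 10 bases, with middles at -92 bp from the 5′-most TSS and at -76 bp from a TSS further in, and both intervals covered an annotated TSS. The middle of the latter fell in a 5′ untranslated exon of another *Wapal* transcript.

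*Pds5a* and *Pds5b* are both on chromosome 5, on opposite strands and far apart. *Pds5a* (66006499 to 66089095, minus strand) had peaks at -376 and -533 bp, which shared 43 bases and left its TSS uncovered. *Pds5b* (151476314 to 151613265, plus strand) had 1 peak at -80 bp, whose last 21 bases were exonic. *Ctcf* (chromosome 8, 108160468 to 108206822, plus strand) had 1 peak at -214 bp, upstream of all of its 5 annotated TSSs. Altogether, 6 of the 16 gene-proximal peaks of these genes overlapped another peak, as 1 pair each at *Stag1*, *Stag2* and *Pds5a*. Of all peaks in the list, those far from any TSS included, 12.3% overlapped another. The share among gene-proximal peaks alone is not given here.

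Relative to the start site, the nearest peaks of 8 of the 10 genes lay further out than the median for protein-coding genes with a gene-proximal peak. The median absolute distance of the nearest peak was 172 bp, and for protein-coding genes with a gene-proximal peak it was 46.0 bp, with quartiles of 19.0 and 91.0 bp. In 6 of the 10 genes the middle was over 100 bp from every TSS, so the fixed 200 bp interval did not cover one. These were *Smc1a*, *Smc3*, *Stag2*, *Nipbl*, *Pds5a* and *Ctcf*. The corresponding share was 22.2% of protein-coding genes with a gene-proximal peak. *Smc1a* was at the 97.4th percentile of absolute distance among them, *Pds5a* at the 95.7th, *Smc3* at the 93.9th, *Nipbl* at the 90.6th and *Ctcf* at the 90.2nd. *Rad21* (37.9th percentile) and *Stag1* (1.69th) were the only members nearer than the median gene.

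The cohesin and CTCF genes have more annotated start sites than the comparison genes, with a median of 5.00 TSSs against 3.00. The distance was taken to the nearest of all TSSs of a gene, and whether TSS number bears on it was not tested. Among genes with a promoter CpG ratio in the same range as the cohesin and CTCF genes, the median absolute distance was 50.0 bp and 24.6% had the middle over 100 bp from the TSS. Genes were not matched by ratio within this range, and whether CpG content bears on the distance was not tested. The direction was upstream in 9 of the 10 genes, compared with 74.9% of protein-coding genes with a gene-proximal peak. Of these 9, *Stag1* was upstream by 1 bp only, and *Wapal* turned to 13 bp downstream when peaks within 500 bp were merged. The distance depends on where the annotation places the start sites, and other annotations were not tested.

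**Figure D2:**
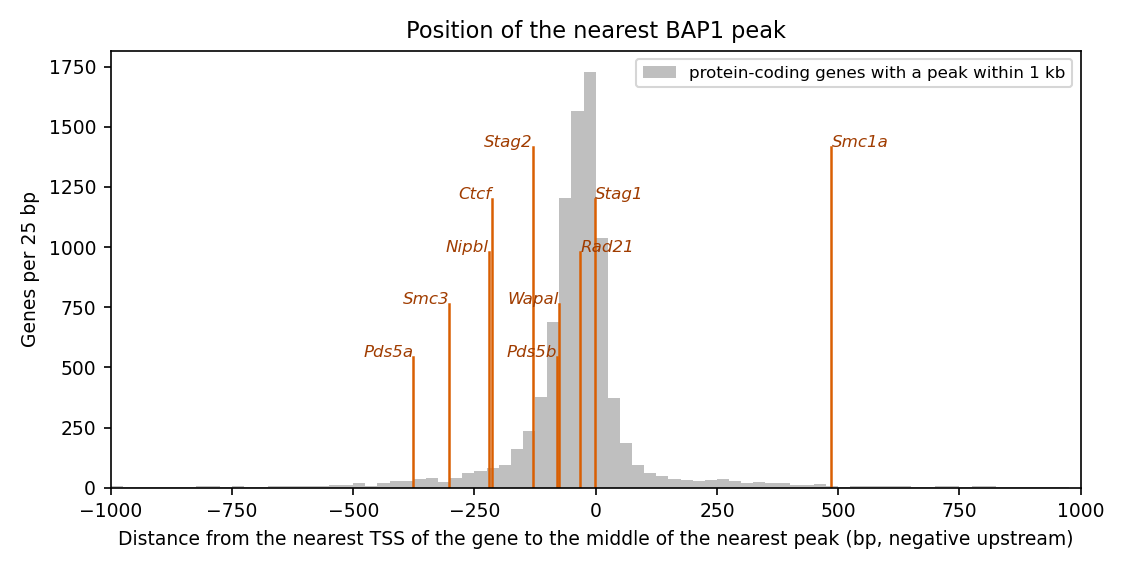
Distance from the nearest TSS to the middle of the nearest BAP1 peak in bp (x axis, negative upstream), with protein-coding genes that have a gene-proximal peak as grey bars of 25 bp (y axis, number of genes). Orange lines mark the 10 cohesin and CTCF genes, their heights chosen for legibility. *Rad21*, *Stag1*, *Wapal* and *Pds5b* fall within the central mass, and the others lie in its tails, from -376 bp for *Pds5a* to 486 bp for *Smc1a*.

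None of the 10 genes had a peak inside its gene body beyond 1 kb of its own TSSs, although they span 29.2 kb (*Rad21*) to 361 kb (*Stag1*). Of the protein-coding genes with a gene-proximal peak that are at least as long as *Rad21*, 10.6% had such a peak in the body, so the count of 0 of 10 is near the background. Within 50 kb of any TSS there was no further peak at 4 genes, *Smc3*, *Rad21*, *Stag1* and *Stag2*. The number of peaks within 50 kb, gene-proximal ones included, had a median of 2.50, and for protein-coding genes with a gene-proximal peak it was 3.00.

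The other 6 genes had 12 more distant peaks between them, of which 7 were gene-proximal for another gene. *Ctcf* had the most crowded surroundings, with 7 peaks within 50 kb, at the 92.5th percentile. These comprised its own promoter peak, a pair of overlapping peaks at *Fam65a* at -31371 and -31261 bp, and 1 at -29849 bp inside *Fam65a*, near no TSS. The rest were peaks at the divergent genes *Acd* and *Pard6a* and a peak shared by *4933405L10Rik* and *E130303B06Rik*. The peaks at *Acd*, *Pard6a*, *4933405L10Rik* and *E130303B06Rik* lay 64508 to 71617 bp downstream of the TSS of the longest *Ctcf* transcript. They counted only through an internal TSS of *Ctcf* without a protein-coding transcript. By construction, further TSSs can only raise such a count. The next peak of *Smc1a* was at *Hsd17b10*, at -14630 bp, and that of *Pds5b* was at *N4bp2l2*, at -8032 bp. *Pds5a* had a pair of peaks at -26568 and -26964 bp that were near no annotated TSS. *Wapal* had 1 such peak beyond the end of the gene, inside *A930038B10Rik*. For 9 of the 10 genes the nearest peak had no TSS of another gene within 1 kb, whereas 31.5% of protein-coding genes with a gene-proximal peak shared theirs with another gene.

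**Figure D3:**
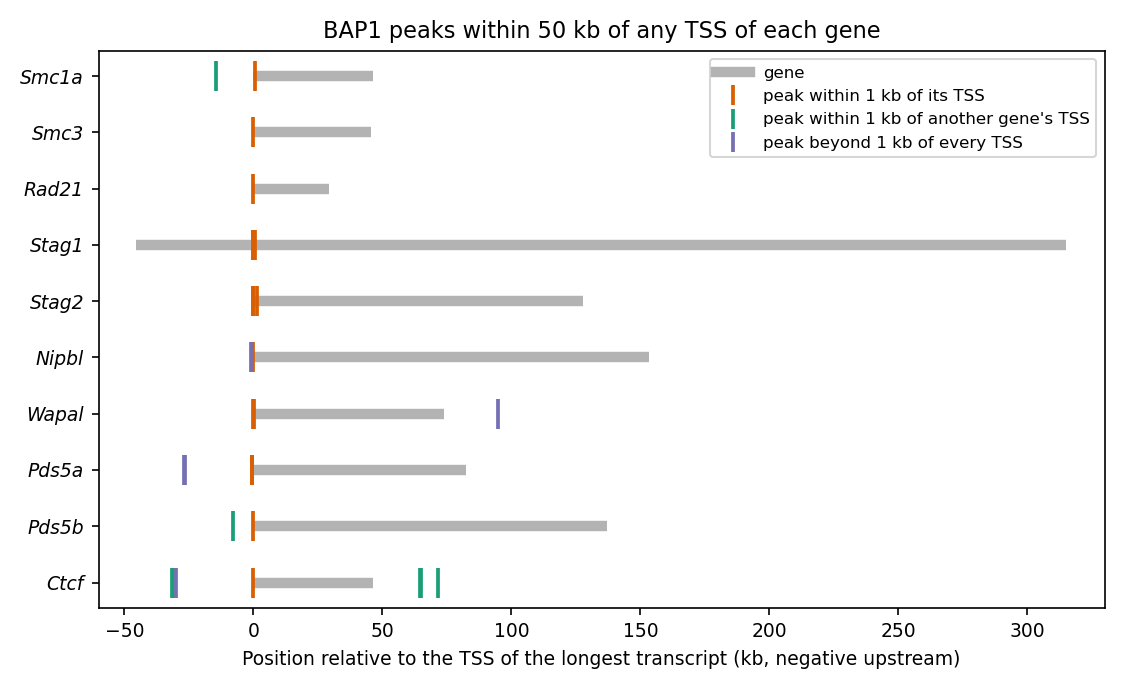
BAP1 peaks within 50 kb of any TSS of each gene, with position relative to the TSS of the longest transcript in kb on the x axis (negative upstream). Grey bars are genes, orange ticks gene-proximal peaks, green ticks peaks within 1 kb of a TSS of another gene and purple ticks peaks beyond 1 kb of every TSS. The long bodies of *Stag1*, *Nipbl*, *Pds5b* and *Stag2* contain no tick beyond their start sites, and *Ctcf* has ticks on both sides.

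Other genes of the cohesin pathway and of related complexes were examined by lists of names. Their counts are read beside the 39.6% of all protein-coding genes with a gene-proximal peak. Among 9 regulators of cohesin, 8 had a gene-proximal peak. These were *Mau2*, the partner of NIPBL in loading, *Esco1* and *Esco2*, which acetylate SMC3, *Cdca5* (sororin), which counteracts WAPL, *Hdac8*, which deacetylates SMC3, *Sgol1* and *Sgol2* (shugoshins), which protect cohesin at centromeres, and *Espl1* (separase), which cleaves RAD21. *Pttg1* (securin), the inhibitor of separase, was the exception, and its nearest peak lay at -7529 bp, at the promoter of *Slu7*. The nearest peaks of the 8 regulators with a gene-proximal one were all centred within 98.0 bp of a TSS. Condensin, which compacts mitotic chromosomes, had a gene-proximal peak at 8 of 8 genes, with a median absolute distance of 95.5 bp. The Smc5/6 complex, which acts in DNA repair, had one at 6 of 6 genes, with a median of 71.0 bp. The promoter factors YY1, ZFP143 and MAZ have been linked to CTCF and to loop anchors, and their genes *Yy1*, *Zfp143* and *Maz* all had more than 1 peak (3, 2 and 2). Their nearest peaks lay at -386 to -20 bp with a median absolute distance of 163 bp, close to the 172 bp of the cohesin and CTCF genes, so distances of this size were not particular to the latter.

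The germline counterparts of the ring subunits and of CTCF were without a gene-proximal peak, at 0 of 5 genes. Among all protein-coding genes 39.6% had one, and the count was not tested. *Smc1b* is the meiotic form of *Smc1a*, *Rec8* and *Rad21l* replace *Rad21*, *Stag3* replaces *Stag1* and *Stag2*, and *Ctcfl* (BORIS) is the testis paralog of *Ctcf*. Each of their 5 somatic counterparts had at least 1 peak. The nearest peak was 10.8 kb away for *Rec8*, 16.2 kb for *Stag3*, 35.6 kb for *Ctcfl*, 72.8 kb for *Rad21l* and 94.9 kb for *Smc1b*. In 4 of the 5 this nearest peak lay at the promoter of another gene, and that of *Ctcfl* was near no TSS. No measure of transcription in Ba/F3 cells was analysed here, so presence of a peak and activity of the gene cannot be told apart in this contrast.

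**Figure D4:**
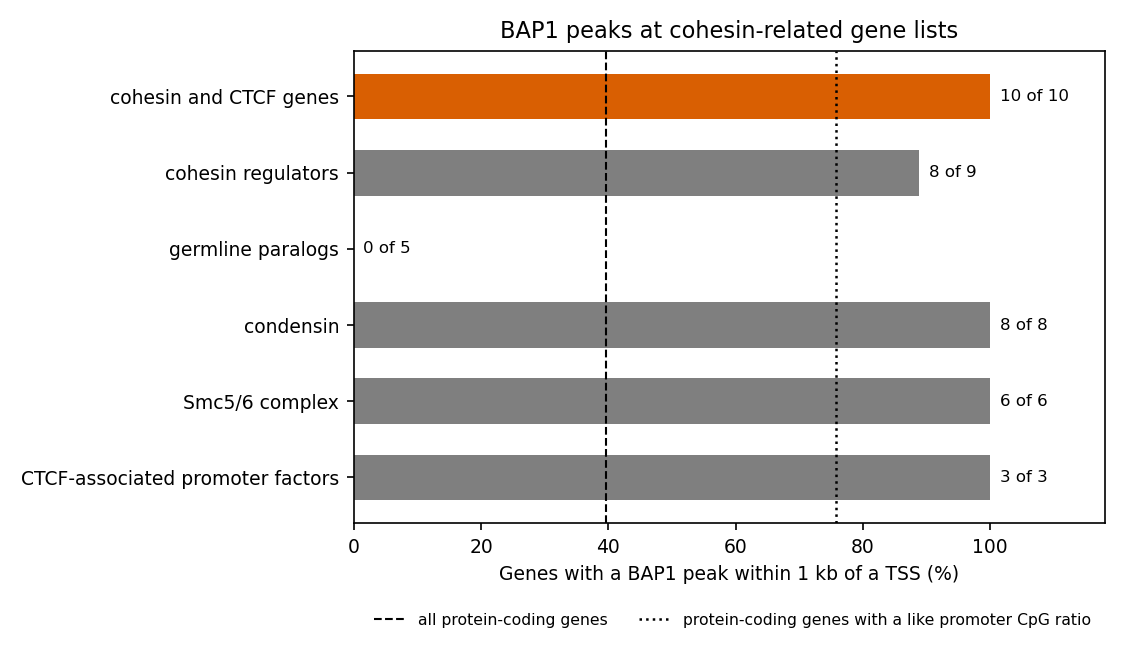
Share of genes with a BAP1 peak within 1 kb of a TSS (x axis, percent) for the cohesin and CTCF genes (orange) and 5 related lists (grey), with the counts beside the bars. The dashed line is the share of all protein-coding genes, 39.6%, and the dotted line that of protein-coding genes with a promoter CpG ratio in the range of the cohesin and CTCF genes, 75.8%. The germline paralogs, at 0 of 5, are the only list below the dashed line.

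The cohesin and CTCF genes had CpG-rich promoters, a property the rule did not use. The CpG ratio, the observed number of CpG dinucleotides over that expected from base composition within 500 bp on either side of the TSS, ranged from 0.779 (*Smc1a*) to 1.13 (*Pds5a*), with a median of 0.947. The median was 0.764 for protein-coding genes with a gene-proximal peak and 0.296 for those without. *Pds5a* was at the 99.9th percentile of protein-coding genes, *Stag1* at the 98.0th, *Ctcf* at the 97.2nd and *Smc1a*, the lowest, at the 76.0th. In the range of ratios spanned by the cohesin and CTCF genes, 75.8% of 5361 protein-coding genes had a gene-proximal peak. Beside this share, the count of 10 of 10 is nearer to the background than beside that of all protein-coding genes.

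Among the germline paralogs, the ratios of *Rad21l* (0.243), *Ctcfl* (0.412) and *Rec8* (0.491) were lower than those of all cohesin and CTCF genes. *Smc1b* (0.704) and *Stag3* (0.754) came close to *Smc1a*. In the interval between these last values, 70.6% of 1501 protein-coding genes had a gene-proximal peak. *Smc1b* and *Stag3* thus lacked a gene-proximal peak at ratios where most genes had one. Conversely, *Hdac8*, singled out after its value was seen, had a ratio of 0.410 and a gene-proximal peak.

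**Figure D5:**
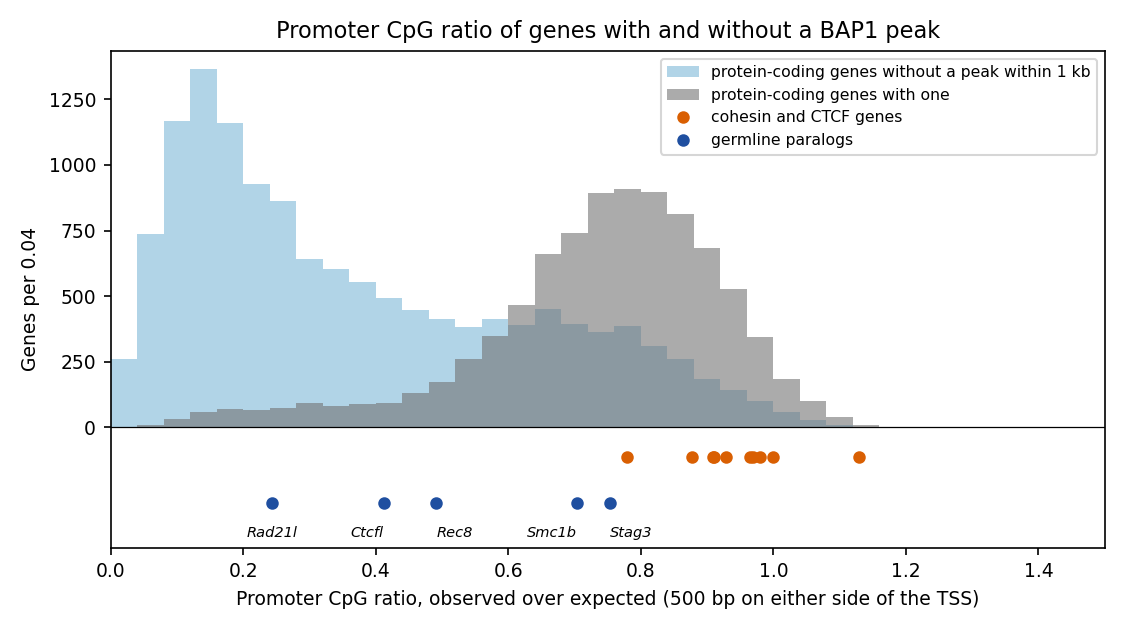
Promoter CpG ratio (x axis, observed over expected) of protein-coding genes without (blue) and with (grey) a gene-proximal BAP1 peak, as numbers of genes per bin of 0.04 on the y axis. Points under the histogram are the 10 cohesin and CTCF genes (orange) and the 5 germline paralogs (dark blue), placed at arbitrary heights. All orange points lie at or above 0.779, and the germline paralogs lie between 0.243 and 0.754.

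The peak sequences were searched on both strands for 11 short motifs of promoter factors, and matches are given as descriptions of the letters only. The nearest peaks of the cohesin and CTCF genes had a median of 72.0% G and C, and all peaks a median of 65.0%. All peaks include those far from any TSS, and a median for gene-proximal peaks alone is not given here. The SP/KLF box GGGCGG was found in the nearest peak of 7 genes and in 11 of the 16 gene-proximal peaks, and in 59.5% of all peaks and 68.6% of gene-proximal ones. The ETS site CCGGAAG was in the nearest peak of *Smc1a*, *Rad21* and *Nipbl*, and in 20.2% of gene-proximal peaks. In *Smc1a* and *Nipbl* it stands as the reverse complement in the sequences printed above, and in *Rad21* it begins 19 bp downstream of the TSS, beyond the part that is printed. The NF-Y box CCAAT was in 5 of the 16 peaks, at *Smc3*, *Stag1*, *Stag2* and *Wapal*, where the overlapping pair of *Stag1* peaks holds the same box. Its share was 30.0% of gene-proximal peaks. None of the 11 motifs was present in the nearest peaks of all 10 genes. The nearest peaks of *Stag2* and *Wapal*, whose sequences are not shown, held none of the 11.

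Rarer motifs occurred in 1 or 2 of the 16 peaks. The YY1 core ATGGCGG, for a factor known to bind BAP1 together with HCF1, was in the peak of *Rad21* and in 1 peak of *Stag1*, and in 9.13% of gene-proximal peaks. The E-box CACGTG was in the *Smc3* peak, where it begins at -342 bp, and the reversed CCAAT box of the same peak begins at -317 bp. The E2F site GGCGGGAA was in 1 peak of *Pds5a*, and the THAP11/ZNF143 element ACTACAA in 1 peak of *Wapal*. Among gene-proximal peaks the E-box was in 8.06%, the E2F site in 3.51% and the THAP11/ZNF143 element in 2.92%. A single match in 16 peaks is near these shares. The NRF1 site GCGCATGC, the CRE TGACGTCA and the TATA box TATAAA had no match in the 16 peaks, at shares of 5.80, 3.35 and 2.41% of gene-proximal peaks. The core motif of CTCF itself had no match in the 16 peaks, including the peak of *Ctcf*. It was present in 0.904% of all peaks and 0.754% of gene-proximal ones, so its absence from the 16 is near the background.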

How the data were processed

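ChIP-Seq was performed in Ba/F3 cells, and the authors deposited 1 list of peak coordinates for the anti-BAP1 and anti-FLAG samples together. Per the study's methods and the submitters' processing notes, reads were mapped to mm9 with Bowtie 1.0.0 and peaks were found with MACS 1.4.2 against input DNA of the same cells. The threshold, and the rule that joined both samples, are not given in the sources used here. The list holds starts and ends only, and 0 per-sample columns were left unmatched. Peak numbers in the list increased with distance to the nearest TSS (Spearman's rho 0.852 over 13164 peaks, a description), so they were not read as strength.

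Peaks were placed on GENCODE M1 (NCBIM37, the same build as mm9), leaving out 37 mitochondrial genes. The middle of a peak was its start plus 100 bp. Peaks with a middle within 1 kb of any TSS of a gene were gene-proximal for it, and distances are negative upstream. All 41 listed symbols were found. Motif offsets count from 0 at the TSS. The members and lists were chosen with earlier results of these data known, and all 10 members were to be named, with genes of the other lists where they lack a gene-proximal peak or where few are of one kind. Because genes are not replicates, no test was run. Sequence is shown from 6 of the 10 nearest peaks, and that of the others is not reported here. Alternatives were the peak edge, 1 TSS per gene, TSSs of protein-coding transcripts, windows of 500 bp, 2 kb and 5 kb, merging of peaks within 500 bp, a CpG window of 250 bp and a range of 20 kb. Scripts were tested on simulated data against brute-force distances, bedtools 2.31.1 and planted motifs. Python 3.11.15, numpy 2.4.6, pandas 2.3.3, scipy 1.17.1, pysam 0.24.0 and matplotlib 3.10.9 were used.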

Additional observations from a re-analysis of the deposited data

How the results depend on the processing

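The count of cohesin and CTCF genes with a gene-proximal peak was 10 under each of the 7 alternatives. By construction, the peak edge and the windows of 2 kb and 5 kb could not lower it. The window of 500 bp could not either, since every nearest peak lay within 486 bp of a TSS. The count of genes in the related lists, 25 of 31, was recomputed with TSSs of protein-coding transcripts and with windows of 500 bp and 2 kb, and was 25 each time. The share of protein-coding genes with a gene-proximal peak, 39.6% in the main setting, was 37.6% with 1 TSS per gene. It was 38.6, 40.4 and 42.5% with windows of 500 bp, 2 kb and 5 kb. The peak edge gave 39.7%, TSSs of protein-coding transcripts 39.2% and merged peaks 39.5%. Merging peaks within 500 bp lowered the number of cohesin and CTCF genes with more than 1 gene-proximal peak from 4 to 1, by construction, since the intervals that overlap or adjoin become 1. The distance of the nearest peak moved by at most 100 bp in 30 of 30 alternatives. It changed sides in 1, where merging joined both *Wapal* peaks and placed their common middle at 13 bp. The median CpG ratio of the cohesin and CTCF genes was 0.969 with the CpG window of 250 bp, and 0.947 in the main setting. Their median number of peaks within 50 kb, 2.5 in the main setting, was 2 with merged peaks. With a range of 20 kb it was also 2. No paired analysis was possible because the list combines both samples. Without heights or depth, peaks below the threshold could not be seen, so a missing peak means only that none was listed.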
